A study of Mus musculus with 103 samples.

Results

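Markers of bile duct epithelium and of liver progenitors were followed through sorted liver cells, liver tumours and the cells and tumours of other organs. The 6 genes on the list were Epcam, Spp1, Cftr, Tspan8, Onecut1 and Onecut2. They were chosen by name, and a gene was measured through the probe sets that the array annotation assigns to it. That gave 13 probe sets for 5 genes, of 17097 genes on the array with a probe set of their own. Spp1, which encodes osteopontin, had no probe set in the annotation used here and was not analysed here.

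Expression was measured in mouse samples with 1 array each, and the labels place them in 29 groups. In 40 samples the RNA came from cells sorted with magnetic beads that bind Prominin1, a membrane protein and the product of Prom1. Of these, 5 came from untreated liver, 9 from liver after DDC treatment and 3 from neonatal liver. The other organs were uterus, kidney and lung with 4 samples each, small intestine, prostate and salivary gland with 3 each, and stomach with 2. The labels give the agent only as DDC. Primary tumours gave 56 samples. Those of the liver were hepatocellular carcinoma/cholangiocarcinoma (HCC/CC, n = 14) and hepatoblastoma (n = 2). Those of the gut were 7 gastric adenomas, 4 gastric adenocarcinomas, 3 small intestinal adenomas and 5 large intestinal adenomas. The others were 8 prostatic adenocarcinomas, 3 uterine carcinomas, 2 bronchopulmonary adenocarcinomas and 8 squamous cell carcinomas (4 perineal, 3 perioral and 1 periorbital). A further 7 samples were metastases, 1 per site. The series describes oncogenes switched on in Prom1-expressing cells. Strain, alleles, oncogenes and ages are not stated in the labels. Whether 2 samples of a group share an animal is not stated either, so the p-values reflect sample-to-sample spread that could be partly technical. Among the sorted liver cells the closest pairs were neonatal samples 1 and 3 and DDC samples 6 and 7. The SD of their log2 difference over all probe sets was 0.28 and 0.30. Tumour tissue and sorted cells went through different RNA kits, so tissue, sort and kit cannot be told apart where tumours are set against sorted cells. In such bulk samples fewer cells of a type and less RNA per cell cannot be told apart.

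Hepatoblasts of the embryonic liver give rise to both hepatocytes and the cholangiocytes that line bile ducts. Epcam encodes an epithelial adhesion protein that is present on hepatoblasts and cholangiocytes and is lost by mature hepatocytes, and it returns on duct-like cells that expand after injury. Tspan8 encodes a tetraspanin, a membrane scaffold of many secretory epithelia. Cftr encodes the chloride channel through which cholangiocytes drive ductal secretion. Onecut1 (HNF-6) and Onecut2 encode paralogous homeodomain factors that act in hepatoblasts, in bile duct development and in hepatocytes.

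The 250 bases upstream of the annotated start of 3 of the genes are shown because the genes fell into sets with different profiles: Epcam and Cftr were present in many epithelia, and Onecut1 was above background mainly in liver. They are RefSeq sequences of the plus strand in build GRCm38.p6. Capitals mark the E-box letters CACCTG, which read CAGGTG when they lie on the other strand; all motifs were searched on both strands.
Epcam, chr17:87635729-87635978: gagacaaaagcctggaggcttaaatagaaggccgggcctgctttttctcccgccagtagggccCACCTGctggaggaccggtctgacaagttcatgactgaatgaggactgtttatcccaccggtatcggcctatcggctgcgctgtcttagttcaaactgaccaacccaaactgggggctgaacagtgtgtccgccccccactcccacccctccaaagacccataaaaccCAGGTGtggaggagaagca
Cftr, chr6:18170437-18170686: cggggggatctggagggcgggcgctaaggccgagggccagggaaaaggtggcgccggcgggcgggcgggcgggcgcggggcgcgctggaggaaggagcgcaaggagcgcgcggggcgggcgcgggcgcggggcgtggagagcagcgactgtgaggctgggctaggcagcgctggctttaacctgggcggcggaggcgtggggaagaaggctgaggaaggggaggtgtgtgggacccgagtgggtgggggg
Onecut1, chr9:74861671-74861920: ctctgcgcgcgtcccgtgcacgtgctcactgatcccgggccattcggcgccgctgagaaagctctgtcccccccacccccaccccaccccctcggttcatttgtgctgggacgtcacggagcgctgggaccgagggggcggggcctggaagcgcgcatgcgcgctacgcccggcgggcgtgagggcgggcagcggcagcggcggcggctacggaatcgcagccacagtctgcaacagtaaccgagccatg
The Epcam window held 2 copies of CACCTG, which 17.22% of 32851 promoter windows of this length held at least once. None of the 3 windows shown held ATCGAT or ATTGAT, core letters of Onecut sites, GTTAAT, a part of HNF1 sites, or CTTTGA, a TCF/LEF core. Those letters were found in 0.73%, 6.72%, 6.43% and 13.83% of all windows. The Tspan8 window, not shown because the table's start for it lies inside the gene's annotated span, held 1 ATTGAT. The Cftr and Onecut1 windows were rich in G and C (76.4% and 71.6%, against 56.4% for Epcam). A match is only a run of letters, and no binding was measured.

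Values are log2 levels. A level near or under 4.06, the filter value of the fit of sorted cells, is called background here, and a difference against such a level is open to compression. A gene was called when the Benjamini-Hochberg adjusted p of limma, taken over all genes tested, was under 0.05 and the log2 difference was at least 1. The sort itself was not mirrored by Prom1 RNA in untreated liver, where Prom1 lay between 2.64 and 4.24, against 10.23 to 10.38 in neonatal and 3.31 to 9.31 in DDC liver cells. Untreated liver samples 1 and 2 stood apart from samples 3, 4 and 5: the mean level of 10 endothelial markers was 10.87 and 10.96 in them and 6.77 to 8.04 in the others. In DDC liver it was 10.33 to 10.99 in samples 1, 2, 4 and 5 and 7.39 to 8.87 in the other 5 samples. The comparisons against untreated or DDC liver cells below were also computed without these 6 samples. Over the 5 genes, 20 results kept their call or lack of one, 2 gained a call and 2 lost one. The value is given below for both gained calls and for the lost Onecut2 call of neonatal against untreated cells. It is not given for the other lost call. Quantile normalization moved the balance of calls over all genes: 71.9% of called genes were higher in neonatal against untreated cells, and 58.5% after it. The same shares were 74.7% and 59.5% for DDC against untreated cells and 73.6% and 59.2% for HCC/CC against untreated cells. The median of all genes in these comparisons went from 0.31 to 0.10, from 0.25 to 0.07 and from 0.30 to 0.11, while no call of the 5 genes in them changed under it. The actin control probe sets, whose 3′ minus 5′ log2 signal is a measure of RNA quality, also differed between groups. This signal was 1.05 to 1.73 in untreated liver cells and 0.72 to 0.86 in neonatal cells, which did not overlap, 0.54 to 1.39 in DDC cells, 0.67 to 1.29 in HCC/CC and 0.90 and 1.36 in hepatoblastoma. Its part in the comparisons between these groups was not tested. Hepatocyte markers were high in all 3 liver states, with a mean level of 16 genes between 9.14 and 11.85.

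Neonatal liver cells carried the surface markers Epcam and Tspan8, which were at or close to background in untreated liver cells, except for Tspan8 in sample 2. Of the 5 genes, Epcam, Tspan8, Cftr and Onecut2 were higher in neonatal than in untreated liver cells and none was lower, where 22.0% of all genes tested were called higher. Epcam lay at 10.61, 10.02 and 10.69 in neonatal liver cells and at 4.75, 4.51, 3.32, 3.26 and 4.64 in untreated liver cells. The groups did not overlap, and every untreated sample was at or close to background. The difference was 6.34 ± 0.85 (SE), with an adjusted p of 3.48e-07. Tspan8 was at 8.18, 6.97 and 8.16 in neonatal cells and at 3.40, 5.95, 2.87, 2.92 and 3.65 in untreated cells. Only untreated sample 2 was clear of background, and the difference was 4.01 ± 0.99 (SE; adjusted p = 0.00137). Cftr, measured at 5.06, 4.12 and 4.58 against 2.58 to 3.41, was low in both groups, with a difference of 1.60 ± 0.49 (SE; adjusted p = 0.00875). Without neonatal sample 1 it was 1.37 with an adjusted p of 0.0605.

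The 2 Onecut genes were present in untreated liver cells too. Onecut2 was at 9.43, 9.41 and 9.48 in neonatal cells and at 7.02, 4.12, 8.81, 8.40 and 8.48 in untreated cells. The neonatal samples were tight and above every untreated sample, and the difference was 2.08 ± 0.71 (SE; adjusted p = 0.0174). Without the endothelial-high samples it was 0.88 with an adjusted p of 0.00716, under the size needed for a call. Without untreated sample 2 alone it was 1.27 with an adjusted p of 0.0711, and without neonatal sample 3 it was 2.06 with 0.0506. Onecut1 was at 8.44, 8.50 and 8.78 in neonatal cells and at 6.86, 4.05, 8.96 and 6.34 in untreated samples 1 to 4 and higher still in sample 5, so the untreated samples spread on both sides of the neonatal ones. The difference of 1.13 ± 0.89 (SE) did not pass the test (adjusted p = 0.314), and without untreated sample 5 it was 2.02 with an adjusted p of 0.0387. Untreated sample 2 was the lowest in both Onecut genes and also had the lowest hepatocyte marker level of its group, 10.41. The part of this in the result was not tested.

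**Figure D1:**
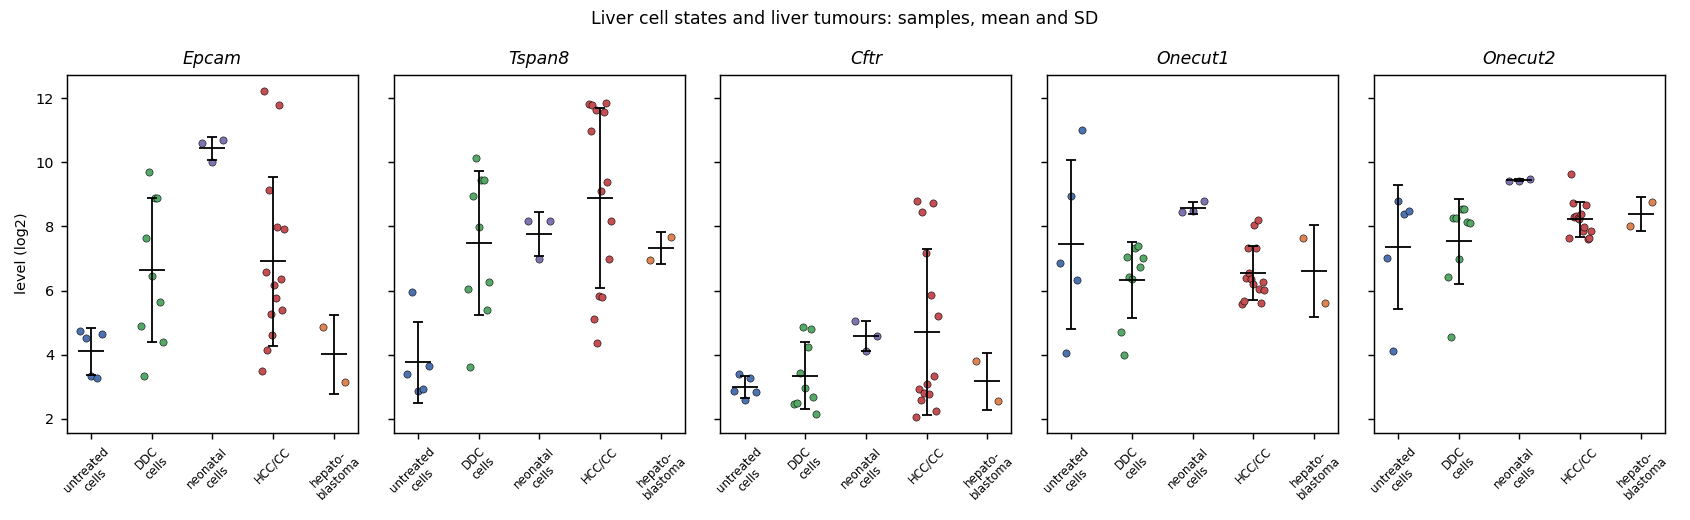
Log2 level of the 5 genes (y axis) in untreated, DDC and neonatal liver cells, HCC/CC and hepatoblastoma (x axis). Points are samples, and bars give the mean and SD. Epcam lies between 10.02 and 10.69 in neonatal cells and at or under 4.75 in untreated cells, and HCC/CC spans the range from 3.50 to 12.24.

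After DDC, Epcam and Tspan8 were higher than in untreated liver cells, where 16.2% of all genes tested were called higher. Epcam ranged from 3.32 to 9.69 over the 9 DDC samples with a median of 6.45, and 7 of 9 samples were above every untreated sample. The difference was 2.55 ± 0.65 (SE; adjusted p = 0.00198). It had an adjusted p of 0.0553 when only the compared groups were in the fit. Tspan8 ranged from 3.61 to 10.15 with a median of 7.99, again with 7 of 9 samples above every untreated sample, and the difference was 3.72 ± 0.75 (SE; adjusted p = 0.000189). Samples 4, 6 and 7 had the highest Epcam (9.69, 8.88 and 8.88) and also the highest Tspan8 (10.15, 9.45 and 9.46) and Cftr (4.88, 4.22 and 4.79). Cftr was above background in these 3 of 9 samples alone, and its group means did not pass the filter, so it was not tested. Samples 1 and 2 had the lowest Onecut1 (4.70 and 4.00), Onecut2 (6.41 and 4.56) and Prom1 (3.92 and 3.31) of the 9. The same samples had the lowest mean hepatocyte marker levels of the 9, 10.11 and 9.14, and the part of this was not tested.

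Neither Onecut gene was called in DDC against untreated liver. Onecut2 had a median of 8.15 in DDC cells, close to 8.40 in untreated cells, and a difference of 0.17 ± 0.54 (SE; adjusted p = 0.819). Onecut1 was 1.11 ± 0.68 (SE) lower in DDC cells by the probe set used, with an adjusted p of 0.188. Its second probe set gave a difference of -1.45 with an adjusted p of 0.00186. Without the endothelial-high samples the first probe set gave -1.66 with an adjusted p of 0.0291, and without untreated sample 2 it gave -1.96 with 0.0112. The second Epcam probe set, whose name marks possible cross-hybridisation, did not follow the first: its difference was -0.33 with an adjusted p of 0.254.

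Neonatal cells exceeded DDC cells in Epcam and Onecut2, where 8.15% of all genes tested were called higher. The Epcam difference was 3.80 ± 0.77 (SE; adjusted p = 0.000454), and all 3 neonatal samples were above all 9 DDC samples. For Onecut2 the difference was 1.91 ± 0.65 (SE; adjusted p = 0.0381), again with no overlap, but the call was lost without any 1 of the neonatal samples or without DDC sample 1, 2 or 5, with adjusted p-values up to 0.126. Onecut1 also did not overlap, at 2.24 ± 0.81 (SE), but its adjusted p was 0.0543. Its second probe set was called at 2.47. Cftr missed the threshold at 1.25 ± 0.45 (SE; adjusted p = 0.0536), and was called without DDC sample 4, 6 or 7. Tspan8 differed by 0.29 ± 0.90 (SE; adjusted p = 0.869).

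The other genes of these programmes were taken from fixed lists, which were chosen with earlier results of these data known. Of 16 measured bile duct genes, 14 were higher and none lower in neonatal against untreated liver cells, with a median difference of 3.97 against 0.31 over all genes tested. Those with the largest differences were Cd24a (5.96), Bicc1 (5.94), Cldn7 (5.35) and Pkhd1 (5.28). In DDC against untreated liver 9 of the 16 were higher and none lower, with a median of 1.42 against 0.25, led by Cd24a (3.42), Bicc1 (2.97), Cldn4 (2.07) and Cdh1 (1.82). Of the tested partners of Epcam and junction genes, 11 of 16 were higher in neonatal and 6 of 16 in DDC cells against untreated cells. Krt8, a keratin of simple epithelia and of hepatocytes, was 2.94 higher after DDC. Of the hepatoblast and progenitor genes tested, 8 of 13 were higher in neonatal cells, among them Afp (10.74), the fetal serum protein, and Igf2 (8.34), a fetal growth factor. After DDC it was 5 of 10, and Afp was 3.72 higher. Of the liver transcription factors, 3 of 15 were higher and 2 lower in neonatal cells, against 22.0% and 8.63% of all genes tested, where Prox1 was 3.11 higher and Cebpb fell by 1.85.

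Ion transport genes of ducts were higher in 5 of 10 tested cases in neonatal and in 4 of 10 in DDC cells, with Car2, a carbonic anhydrase, at 4.09 and 1.54. Of the tetraspanins, 3 of 21 were higher in neonatal cells (Tspan6 at 4.15, Tspan3 at 3.90 and Cd9 at 2.35). After DDC 4 of 21 were higher and 1 lower. Of all genes tested, 22.0% were called higher in neonatal and 16.2% in DDC cells. Osteopontin itself had no probe set, but of its receptors and processing genes 7 of 12 were higher after DDC, among them Cd44 at 2.66 and Itgav at 2.12, against 4 of 12 in neonatal cells. Of the macrophage markers, 6 of 15 were higher after DDC, led by Gpnmb at 4.22. Their mean level overlapped, running from 7.68 to 10.95 in DDC and from 7.06 to 9.78 in untreated samples. It was highest in DDC samples 1, 2 and 5 (10.75, 10.94 and 10.95), which were among the endothelial-high samples. Neutrophil markers moved with the neonatal state, with 6 of 7 tested higher and a mean level of 6.69 to 8.01 against 3.78 to 4.51. The part of macrophages and neutrophils in these results was not tested. Epcam and Tspan8 remained higher in DDC cells without the endothelial-high samples (3.35 and 4.76). That set still held DDC sample 9, with a mean macrophage marker level of 9.76.

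In HCC/CC the levels of the surface markers varied widely from tumour to tumour, while Onecut1 and Onecut2 were clear of background in all 14. Against untreated liver cells Tspan8 and Epcam were called higher, where 17.4% of all genes tested were called higher. Tspan8 ranged from 4.37 to 11.85 with a median of 9.23, and 10 of 14 tumours were above every untreated sample. The difference was 5.12 ± 1.21 (SE; adjusted p = 0.00246). Epcam ranged from 3.50 to 12.24 with a median of 6.26, and 11 of 14 tumours were above every untreated sample. Its difference of 2.82 ± 1.12 (SE) had an adjusted p of 0.049, and leaving out any 1 of the 5 untreated samples, or any of 8 of the tumours, ended the call. Cftr was above background in 6 of 14 tumours and lay between 2.07 and 3.32 in the others, and the mean difference was 1.73 ± 1.09 (SE; adjusted p = 0.207). Onecut2 lay between 7.61 and 9.64 in all 14 tumours and was 0.86 ± 0.51 (SE) higher than in untreated cells (adjusted p = 0.185). Onecut1, at 5.58 to 8.21, differed by -0.90 ± 0.72 (SE; adjusted p = 0.324). Without the endothelial-high samples its difference was -2.22 with an adjusted p of 0.0122, and without untreated sample 2 it was -1.75 with 0.0323.

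Single tumours differed in which markers they carried. Tumours 2 and 11 had the highest Epcam (12.24 and 11.78), high Tspan8 (10.98 and 11.85) and the highest Cftr (8.79 and 8.75). They also had the highest Krt19, a bile duct keratin, at 11.58 and 10.93 against 3.10 to 7.57 in the other tumours. Tumour 5 had Epcam at 9.13, Tspan8 at 11.64 and Cftr at 8.46. Tumours 1 and 3 had high Tspan8 (11.82 and 11.81) with low Epcam (3.50 and 6.57) and Cftr at background (2.07 and 2.94). Tumour 7 had the reverse, with Cftr at 7.16, Epcam at 4.61 and Tspan8 at 5.82.

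**Figure D2:**
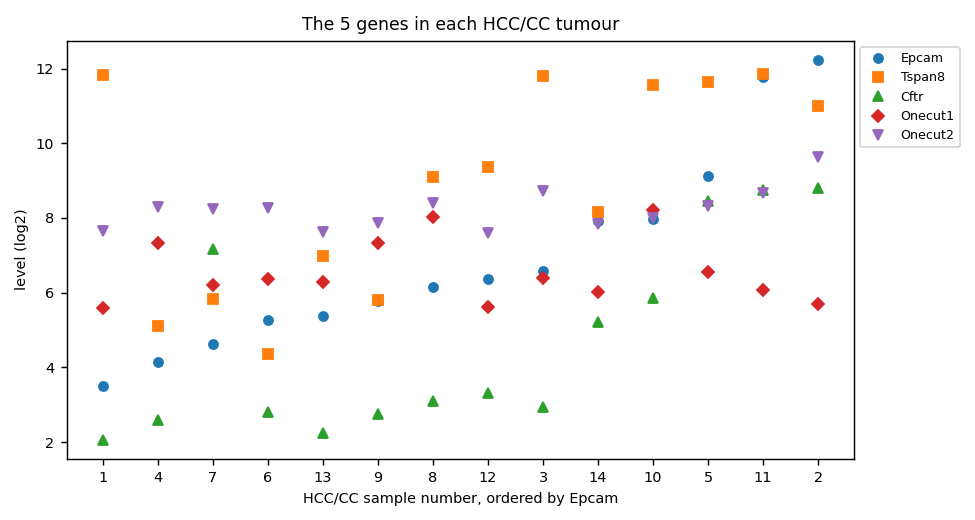
Log2 level (y axis) of the 5 genes in each of the 14 HCC/CC tumours (x axis, ordered by Epcam). Each symbol is 1 gene in 1 tumour. Onecut2 stays between 7.61 and 9.64, while Epcam runs from 3.50 to 12.24. Levels of different genes come from different probe sets, so only the order of tumours within a gene is comparable.

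A set of 20 relations was computed across the 14 HCC/CC tumours and 20 across the 9 DDC samples, with p-values adjusted over all 40. Epcam fell as the mean hepatocyte marker level rose, with a Pearson r of -0.76 (permutation p = 0.001, adjusted 0.0051) and a Spearman rho of -0.76 (permutation p = 0.0025, adjusted 0.013). Without the 2 tumours farthest from the median hepatocyte level the r was -0.58. The other surface marker, Tspan8, had an r of -0.32 with that level (permutation p = 0.26, adjusted 0.36). For Onecut1 it was 0.20 (permutation p = 0.48, adjusted 0.58) and for Onecut2 -0.24 (permutation p = 0.43, adjusted 0.54). Epcam and Onecut2 had an r of 0.66 (permutation p = 0.011, adjusted 0.034) and a rho of 0.47 (permutation p = 0.093, adjusted 0.17), and without 2 tumours the r was 0.17, so that relation rests on them. Epcam and Tspan8 had an r of 0.56 (permutation p = 0.039, adjusted 0.078) and a rho of 0.53 (permutation p = 0.056, adjusted 0.13), with an r of 0.46 without 2 tumours. Onecut1 and Onecut2 were unrelated by this measure, with an r of -0.07 (permutation p = 0.82, adjusted 0.84) and a rho of 0.26 (permutation p = 0.37, adjusted 0.45). Prom1 and Epcam had an r of 0.19 (permutation p = 0.52, adjusted 0.59) and a rho of 0.17 (permutation p = 0.56, adjusted 0.63). Without the 2 tumours farthest from the median Prom1 level the r was 0.57, so the low value depends on them. Cftr split the tumours into those at background and those above, so no pooled correlation is given for it. In the 6 tumours with Cftr above background, Epcam was 12.24, 11.78, 9.13, 7.98, 7.91 and, in tumour 7, 4.61. In the 8 others it lay between 3.50 and 6.57, so Epcam was above all of them in each of the 6 but tumour 7. The mean hepatocyte marker level was 9.73 to 10.72 in the 6 and 10.17 to 11.57 in the 8. Of the 8, only tumours 9 and 12 (10.17 and 10.37) lay within the range of the 6, and the rest were above it. Likewise, no pooled correlation is given for the DDC samples, which fell into 4 with high and 5 with low endothelial markers, too few in each for a correlation of its own.

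None of the 5 genes was called between HCC/CC and DDC liver cells, where 9.99% of all genes tested were called in either direction. The differences were 1.40 ± 1.05 (SE; adjusted p = 0.319) for Tspan8, 0.27 ± 1.01 (SE; adjusted p = 0.862) for Epcam and 0.68 ± 0.38 (SE; adjusted p = 0.174) for Onecut2. For Cftr the difference was 1.38 ± 0.86 (SE; adjusted p = 0.231), and 6 of 14 tumours were above every DDC sample. Of 16 bile duct genes, 7 were higher and 1 lower in HCC/CC against untreated cells, with a median of 1.88 against 0.30 over all genes tested. In that comparison 17.4% of all genes tested were called higher and 6.23% lower. Aqp1, a water channel of ducts that endothelial cells also express, fell by 2.74. Of the endothelial markers, 7 of 10 were lower in HCC/CC, and 6 of 10 tested stellate cell and fibroblast markers were higher. The part of these cell types in the result was not tested.

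In hepatoblastoma Epcam was close to background. The 2 tumours had Epcam at 4.88 and 3.13, against 10.02 to 10.69 in neonatal liver cells, a difference of -6.44 ± 0.56 (SE; adjusted p = 0.00761), where 7.55% of all genes tested were called lower. With 2 tumours and 3 cell samples, leaving out neonatal sample 1 or 3 gave adjusted p-values of 0.0819 and 0.0821. Onecut1 was at 7.63 and 5.60 and Onecut2 at 8.01 and 8.76, all under every neonatal sample, with differences of -1.96 ± 0.61 (SE; adjusted p = 0.0932) and -1.06 ± 0.26 (SE; adjusted p = 0.0556). Onecut1 was called without hepatoblastoma sample 1 (-2.98) and Onecut2 without sample 2 (-1.44). Tspan8 was at 6.97 and 7.68 and differed by -0.44 ± 0.47 (SE; adjusted p = 0.543). Cftr was at background, at 3.79 and 2.54, and was called lower without sample 1 (-2.05). Of 16 bile duct genes 8 were lower and none higher, with a median of -3.55 against 0.01 over all genes tested, and Krt19 fell by 4.50. Of the progenitor genes tested, 3 of 13 were lower, among them Afp at -7.60 and Igf2bp3 at -6.26, and 2 were higher, Lgr5 at 4.18 and Tbx3 at 3.26. Both are targets of Wnt signalling. Between hepatoblastoma and HCC/CC none of the 5 genes was called, where 6.09% of all genes tested were called in either direction, and Epcam differed by -2.91 ± 1.16 (SE; adjusted p = 0.101).

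All 5 genes were called in untreated liver cells against the other organs: Onecut1 and Onecut2 were higher, where 10.1% of all genes tested were called higher, and Epcam, Tspan8 and Cftr were lower, where 18.2% were called lower. Onecut1 had a mean of 7.44 ± 2.65 (SD) in untreated liver, 6.33 ± 1.19 after DDC and 8.57 ± 0.19 in neonatal liver, and of 4.75 or less in every other organ. Lung sample 3 was high at 7.34 against 3.30 to 4.64 in the other lung samples. That whole array stood apart: the SD of its log2 difference over all probe sets was 1.41, 1.14 and 1.10 from lung samples 1, 2 and 4. Between those samples the SD was 0.70 to 0.96. Onecut2 was present in the 3 liver states and in small intestine (8.66, 8.44 and 8.76), and every other sorted sample was at or under 3.94.

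Epcam was highest in small intestine at 12.33 ± 0.08 (SD), followed by stomach at 11.88 ± 0.03 and salivary gland at 11.78 ± 0.10, which overlapped. Prostate, uterus and neonatal liver followed with overlap between neighbours, then kidney at 9.50 ± 0.21 and lung at 8.33 ± 0.74, and DDC and untreated liver came last. Tspan8 was highest in stomach at 12.77 ± 0.16 and small intestine at 11.71 ± 0.12, which did not overlap. Cftr was highest in stomach at 8.76 ± 0.86 and small intestine at 8.50 ± 0.43, which overlapped, and it was near background in lung, prostate and untreated liver.

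In small intestine Cftr (3.48), Epcam (2.63), Onecut2 (4.96) and Tspan8 (2.55) were called higher, where 14.3% of all genes tested were. The Tspan8 call was lost without small intestine sample 2 or 3. Stomach had Cftr (3.78) and Tspan8 (3.76) higher against 9.08% of genes, with 2 samples. Leaving out either stomach sample ended the Tspan8 call. In uterus Cftr was 1.28 higher, where 15.3% were higher, and Onecut2 was called lower at -1.50, where 7.38% were lower. The Cftr call was lost without uterus sample 4 (0.97) and the Onecut2 call without sample 1 or 2. Salivary gland had Epcam higher at 2.01, where 10.9% were higher, and Onecut2 lower at -1.54, where 9.57% were lower, and both calls were lost when any salivary gland sample was left out. Lung had Cftr, Epcam, Onecut2 and Tspan8 lower, where 18.6% were lower, from -2.72 for Cftr to -1.37 for Onecut2. Lung calls were lost for Onecut2 without sample 1, 2 or 4, for Epcam without sample 1 and for Tspan8 without sample 3 (-1.43). In prostate Cftr (-2.83) and Onecut2 (-1.71) were lower, where 7.26% were lower, and the Onecut2 call was lost without any 1 of the prostate samples. The mean of the other organs holds the high liver and small intestine levels of Onecut2, and in every organ called lower for it the gene was at background. None of the 5 genes was called in kidney, where 33.5% of all genes tested were called in either direction, but Onecut2 was called lower (-1.28) without untreated liver sample 2.

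**Figure D3:**
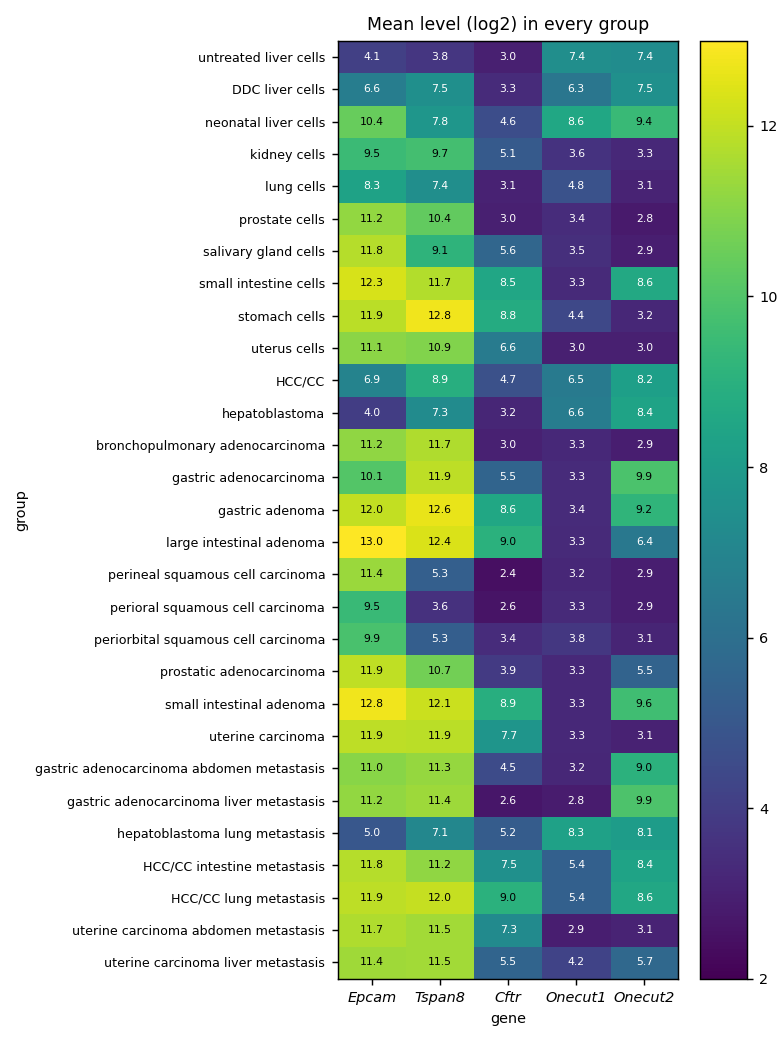
Mean log2 level of the 5 genes (columns) in each of the 29 groups (rows), as colour and number. Onecut1 is above background in the liver groups and near it in most others, and Epcam is under 7 only in untreated and DDC liver cells, HCC/CC, hepatoblastoma and its metastasis.

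HCC/CC was also set against 39 primary tumours outside the liver, from the groups of at least 2. Onecut1 and Onecut2 were higher in HCC/CC, where 11.8% of all genes tested were called higher, and Epcam and Tspan8 were lower, where 14.4% were lower. Onecut1 had a mean of 6.55 ± 0.85 (SD, n = 14) in HCC/CC and of 3.29 over the other tumour groups compared. All 14 HCC/CC tumours were above all 39 others, and the difference was 3.25 ± 0.17 (SE; adjusted p = 4.34e-22). Epcam was -4.60 ± 0.49 (SE; adjusted p = 1.7e-11) against the other tumours, and 9 of 14 HCC/CC tumours were under every one of them. Tspan8 was lower by -1.36 ± 0.51 (SE; adjusted p = 0.0154), a call lost without HCC/CC tumour 6, Onecut2 higher by 2.40 ± 0.43 (SE; adjusted p = 3.67e-06), and Cftr differed by -1.01 ± 0.55 (SE; adjusted p = 0.0926), and was called lower without tumour 2, 5 or 11. Of the liver transcription factor list 8 of 14 were higher in HCC/CC and 2 lower, and of the bile duct list 3 of 16 were higher and 10 lower.

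Onecut2 was high in stomach tumours although sorted stomach cells lacked it. It lay between 7.76 and 9.81 in the 7 gastric adenomas and at 10.11, 9.57, 10.11 and 9.67 in the gastric adenocarcinomas, against 3.72 and 2.73 in stomach cells. The groups did not overlap. The differences were 5.97 ± 0.50 (SE; adjusted p = 0.000417) in adenoma, where 8.07% of all genes tested were called higher, and 6.64 ± 0.36 (SE; adjusted p = 3.38e-05) in adenocarcinoma, where 17.9% were. All 3 Onecut2 probe sets were called higher in gastric adenoma, at 5.97, 4.28 and 6.15. Both comparisons share the 2 stomach samples. Onecut1 was called lower in both, at -1.01 and -1.02, where 3.07% and 10.5% were called lower, but its levels of 3.08 to 4.54 lay near background, and the calls were lost without stomach sample 2, without gastric adenoma 2, 6 or 7, and without gastric adenocarcinoma 1, 3 or 4. Quantile normalization moved the share of higher calls over all genes from 72.5% to 49.8% in adenoma and from 63.0% to 45.7% in adenocarcinoma. Alb, the albumin gene, was 3.56 lower in gastric adenoma. Epcam, Tspan8 and Cftr were not called in either comparison. Their differences in adenocarcinoma were -1.82 ± 1.24 (SE; adjusted p = 0.287), -0.85 ± 0.22 (SE; adjusted p = 0.0229) and -3.22 ± 1.17 (SE; adjusted p = 0.0689). Cftr was called at -2.26 without gastric adenocarcinoma sample 2 (adjusted p = 0.0323) and at -3.77 without sample 1 (0.0448).

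In small intestinal adenoma Onecut2 was at 9.66, 9.33 and 9.93, all above the sorted intestinal cells, a difference of 1.02 ± 0.19 (SE; adjusted p = 0.00894), where 13.6% of all genes tested were called higher. Quantile normalization gave 0.96, under the size for a call, and the call was lost without adenoma 3 (0.88) or intestinal cell sample 2 (0.93). It moved the share of higher calls over all genes from 61.7% to 50.1%. The effect in gastric adenoma exceeded the one in small intestinal adenoma by 4.95 ± 1.41 (SE; adjusted p = 0.0125), in a test added after the values were seen, and it exceeded the change in prostatic adenocarcinoma by 3.23 ± 1.29 (SE; adjusted p = 0.0825). Large intestinal adenomas had no sorted cells of their organ: 3 were at 8.62, 8.51 and 8.52 and 2 at 3.06 and 3.21, while their Epcam was between 12.88 and 13.10. In prostatic adenocarcinoma Onecut2 ranged from 2.78 to 8.89 with a median of 5.30 and was above background in 5 of 8 tumours, against 2.63 to 2.92 in prostate cells. The difference of 2.73 ± 1.31 (SE) was not called (adjusted p = 0.114), and none of the 5 genes was, where 21.1% of all genes tested were called in either direction. With all groups in the fit it had an adjusted p of 0.00758. Quantile normalization moved the share of higher calls over all genes from 58.8% to 45.4%. Tumours 1 and 2 had the highest Onecut2 (8.89 and 8.69) and the highest Cftr (5.10 and 7.57) of the 8.

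**Figure D4:**
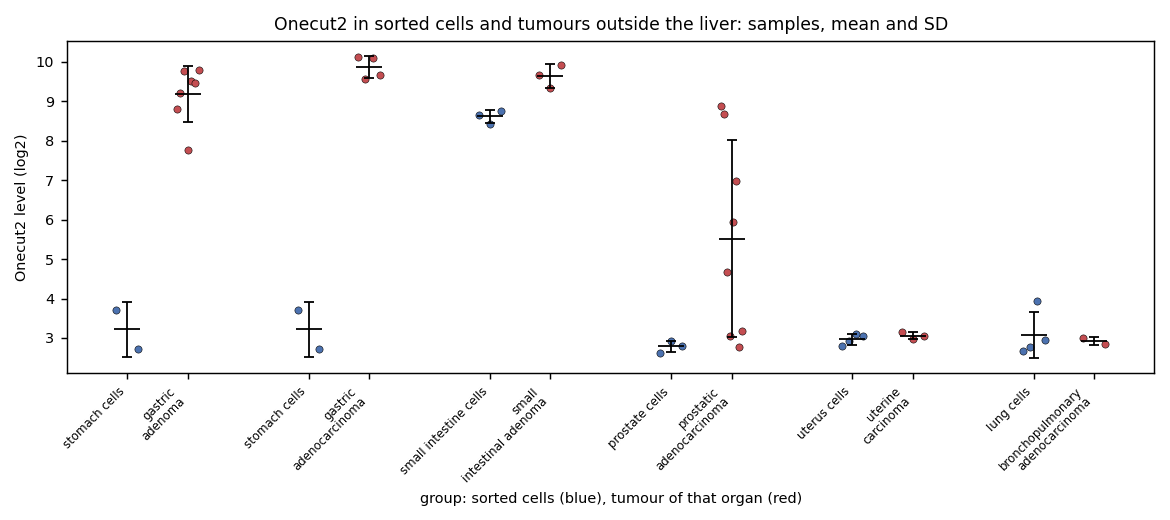
Log2 level of Onecut2 (y axis) in sorted cells and in tumours of 5 organs outside the liver (x axis), with samples as points and mean and SD as bars. Stomach cells lie at 3.72 and 2.73 and gastric tumours between 7.76 and 10.11, while uterine and bronchopulmonary tumours are near 3. The same 2 stomach samples are drawn beside both gastric tumours.

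Uterine carcinoma kept the surface markers of uterus cells, and none of the 5 genes was called, where 18.7% of all genes tested were called in either direction. Epcam and Tspan8 were above all uterus cells, by 0.82 ± 0.23 (SE; adjusted p = 0.0296) and 0.93 ± 0.24 (SE; adjusted p = 0.0231), under the size for a call; without uterus sample 2 Tspan8 was called at 1.04. Bronchopulmonary adenocarcinoma had Epcam at 11.12 and 11.24 and Tspan8 at 11.95 and 11.41, against 7.43 to 9.08 and 4.72 to 9.73 in lung cells. Both were called higher, by 2.85 ± 0.52 (SE; adjusted p = 0.00686) and 4.24 ± 1.06 (SE; adjusted p = 0.0331), where 5.73% of all genes tested were. Both calls were lost when either tumour was left out, and that of Tspan8 without lung sample 2 or 4. Quantile normalization moved the share of higher calls over all genes from 70.7% to 56.6%. Of the tested Epcam partners and junction genes, 12 of 16 were higher there. Squamous cell carcinomas carried Epcam (9.07 to 11.88) without Cftr (3.41 or less) or Onecut2 (3.21 or less).

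Single metastases are described without a test. The HCC/CC metastases of intestine and lung had Epcam at 11.80 and 11.91, above 13 of the 14 primary tumours, with Tspan8 at 11.17 and 12.01, Cftr at 7.52 and 9.01 and Krt19 at 9.91 and 10.95. Onecut1 (5.37 and 5.36) and Onecut2 (8.37 and 8.60) were above background in both. Sorted small intestine cells had Epcam at 12.26 to 12.42, Tspan8 at 11.57 to 11.79 and Cftr at 8.01 to 8.80. Their Onecut1 was at 2.81 to 3.63 and their Onecut2 at 8.44 to 8.76. Sorted lung cells had Epcam at 7.43 to 9.08, Tspan8 at 4.72 to 9.73 and Cftr at 2.65 to 3.41. Their Onecut1 was at 3.30 to 7.34 and their Onecut2 at 2.67 to 3.94. The part of host tissue in the metastases was not tested. The lung metastasis of hepatoblastoma had Epcam at 4.9985, close to the higher of the primary tumours, Onecut1 at 8.29 and Onecut2 at 8.09. Gastric adenocarcinoma metastases kept Onecut2 (9.05 in abdomen and 9.93 in liver) with Onecut1 at 3.24 and 2.83. The liver metastasis of uterine carcinoma had Onecut2 at 5.72 and Onecut1 at 4.20, against 3.10 and 2.92 in the abdominal one. Its Alb level was 13.39, against 3.13, and the part of liver tissue in it was not tested.

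The genes whose group means over the 29 groups were most like those of a member are given as a description. Epcam was nearest to Cd24a (r = 0.91), Actg1 (0.89), Ctbp2 (0.89) and Ezr (0.88). Cftr was nearest to Unc5cl (0.92), 2210407C18Rik (0.84), Misp (0.83) and Cib1 (0.83). Tspan8 was nearest to Golph3l (0.88), Cystm1 (0.87), B4galt6 (0.86) and Frk (0.85). Onecut1 was nearest to the liver genes Klkb1 (0.96), Slc17a2 (0.94), Hrg (0.94) and Slco1b2 (0.93), and Onecut2 to Tm4sf4 (0.85), Lpgat1 (0.78), Hnf4a (0.77) and Akr1c12 (0.77). Among the members, Cftr and Tspan8 had an r of 0.70, Epcam and Tspan8 of 0.67, Onecut1 and Onecut2 of 0.39 and Epcam and Onecut1 of -0.72.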

How the data were processed

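The values were deposited as log2 expression, 1 array per sample, and ran from 1.85 to 14.36; array medians lay between 3.82 and 4.24. The authors used Partek 6.6, per the submitters' processing notes; background correction and normalization are not stated there. The deposited values were used without rescaling. Of 45141 probe sets, 28898 had 1 gene symbol in the annotation given, for 17097 genes; each gene was read from its probe set of highest mean. limma 3.58.1 (R 4.3.3) was fitted with an intensity trend, over all sorted samples, over primary tumour groups of at least 2, or, where a tumour was set against sorted cells, over those 2 groups alone. A gene was tested if either group mean passed percentile 40 of fitted values. Scripts were tested on simulated data, and relations used 100000 permutations. Promoter windows are RefSeq sequences. Plots used matplotlib 3.10.9. The members, lists and comparisons were chosen with earlier results of these data known. Named are the members, Prom1, the 4 genes most like each member and up to 4 called genes of a list with the largest differences; Krt19 and Alb were otherwise chosen after their values were seen. Alternatives were other scalings, filters, probe set rules, samples in the fit, array weights, priors and each sample left out. Sample numbers only name samples.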

Additional observations from a re-analysis of the deposited data

Results flagged for a closer look

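Epcam in gastric adenocarcinoma sample 2 was 6.61, against 11.02 to 11.38 in the other 3 samples, and stood apart as the lowest by Dixon's test. The same sample had Cftr at 2.66, against 5.38 to 7.19, and Tspan8 at 11.58. Tspan8 in untreated liver sample 2 was 5.95, against 2.87 to 3.65 in the other 4 samples, and stood apart as the highest; this sample also had high endothelial and macrophage markers (10.96 and 9.78), and their part in the value was not tested. Of 50 sets of samples tested in this way 2 stood apart, where chance gives about 1 in 20. The difference between 2 effects passed its test for Onecut2, but that test was added after the values were seen. The change from stomach cells to gastric adenoma (5.97) exceeded the change from small intestine cells to small intestinal adenoma (1.02) by 4.95. The mean level was 9.19 in gastric and 9.64 in small intestinal adenoma. In the sorted cells it was 3.22, at background, in the 2 stomach samples and 8.62 in small intestine. The effects thus differed mainly by the level of the sorted cells.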

How the results depend on the processing

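Values here are how many of the 5 genes were called. With only the compared groups in the fit it was 1 for DDC against untreated cells, 1 for kidney and 4 for uterus. Neonatal against DDC cells gave 1 without a filter, 4 with array weights, and 1 to 4 with a sample left out. HCC/CC against untreated cells gave 1 without a filter, with the mean of probe sets, with array weights and with a robust prior, and 1 to 2 with a sample left out. Hepatoblastoma against neonatal cells gave 2 with the lung metastasis added and 0 to 3 with a sample left out. Hepatoblastoma against HCC/CC gave 1 with that metastasis and 1 with only HCC/CC of a title number over 400. Kidney gave 1 with the mean of probe sets or array weights and 0 to 1 with a sample left out. Lung gave 2 to 4, prostate 1 to 2, salivary gland 0 to 2, stomach 1 to 2 and uterus 1 to 4 with a sample left out. Prostate gave 1 with the mean of probe sets, salivary gland 1 without a filter, and uterus 1 with the mean of probe sets and 5 with array weights. Gastric adenoma gave 1 with median centring, a 60th percentile filter, the mean of probe sets or all groups in the fit, and 1 to 2 with a sample left out. Gastric adenocarcinoma gave 1 with the 60th percentile filter and 1 to 3 with a sample left out. Small intestinal adenoma gave 0 with quantile normalization, median centring, the mean of probe sets or all groups in the fit, and 0 to 1 with a sample left out. Prostatic adenocarcinoma gave 1 with all groups in the fit. Uterine carcinoma gave 1 with the mean of probe sets and 0 to 1 with a sample left out. Bronchopulmonary adenocarcinoma gave 1 with quantile normalization, no filter, the mean of probe sets, all groups in the fit or no intensity trend, and 0 to 2 with a sample left out. The causes were not tested. For single genes, 1939 values with a sample left out stayed called or stayed uncalled, 22 gained a call and 65 lost one. No called value changed sign, and the sign of values that stayed uncalled was not counted. Groups of 2 or 3 samples limit the precision, and levels near background limit Cftr and, outside the liver, Onecut1. No paired analysis was possible because the labels give no replicate numbers.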
